A study of Homo sapiens with 18 samples.

Results

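Messenger RNA levels of SR proteins, hnRNP proteins and other splicing regulators were followed in 2 human cell lines, labelled as the multiple myeloma lines XG1 and AMO1, treated with a CDK7 inhibitor. The set is a fixed list of 59 gene symbols, each matched to 1 row of the 18 deposited tables, out of 26249 genes in all. It holds 19 hnRNP proteins, 10 classical SR proteins, 7 other proteins with arginine-serine repeats, 7 RBM proteins, 6 kinases of SR proteins and 10 splice site recognition factors and other regulators. The list was put together with the changes in these same libraries in view, so the counts and calls given for it describe the genes and are not independent evidence about them. The 6 groups, of 3 libraries each, were XG1 cells with DMSO, 100 nM YKL-5-124 or 1000 nM YKL-5-124, and AMO1 cells with the same 3 treatments, all for 6 h. YKL-5-124 is a covalent inhibitor of CDK7, the kinase of the general transcription factor TFIIH that phosphorylates RNA polymerase II and activates cell cycle kinases, and DMSO is its solvent. The series title describes the lines as resistant, without naming an agent in the labels used here. The cells were grown in well plates, and all values come from bulk RNA read at the 3′ ends of transcripts.

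SR proteins carry an RNA recognition domain and a tail of arginine-serine repeats, and they bind exons and recruit the splicing machinery to nearby splice sites. hnRNP proteins coat nascent RNA, and many of them oppose SR proteins at the same exons. SRPK and CLK kinases phosphorylate the arginine-serine repeats and so set where SR proteins are in the cell and whether they are active. Many of these genes hold a poison exon or a spliced 3′ end whose use makes their own transcript a target of nonsense-mediated decay, a loop through which the proteins limit their own level.

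Values were FPKM, a level scaled to transcript length and library size, which in 3′ end libraries does not compare 1 gene with another. Changes are therefore given gene by gene, on the log2(FPKM + 1) scale, with the limma SE and a Benjamini-Hochberg p over all 12204 genes with a group mean of at least 1 FPKM. A gene is said to have risen or fallen where that p was under 0.05. All 59 genes passed this filter. Nothing in the labels says that the 3 libraries of a group came from separate cultures, and a p then covers their spread alone, which may be technical. The libraries labelled XG1 went against a plasma cell label: 5 of 10 plasma cell markers, CD38, IRF4, POU2AF1, PRDM1 and SLAMF7, were under 1 FPKM in all 9, and the summed markers were 44.35 to 75.87 FPKM, against 4808 to 7249 FPKM in AMO1. Erythroid markers summed to 3525 to 4228 FPKM in XG1 and to 3.74 to 29.6 FPKM in AMO1, so XG1 stands for the libraries labelled XG1 throughout. T cell and myeloid markers summed to at most 9.94 FPKM in XG1 and 4.79 FPKM in AMO1, and stromal and epithelial markers to at most 118.6 and 5.82 FPKM. Some markers moved with treatment too: at 1000 nM 4 of 12 erythroid markers fell in XG1 (EPOR, GATA1, HEMGN and KLF1, down to -1.99), where the summed markers were at 3525 to 4163 FPKM, against 4000 to 4228 FPKM with DMSO. In AMO1 3 of 10 plasma cell markers fell at that dose (IRF4, SLAMF7 and TNFRSF17, down to -1.17), with sums of 4808 to 5454 FPKM, against 5215 to 7249 FPKM with DMSO, and the part of these shifts in the results that follow was not tested. The median change of all genes tested was -0.19 in XG1 and -0.18 in AMO1 at 1000 nM, and over all genes 232 rose and 1920 fell in XG1 and 217 rose and 1874 fell in AMO1. With each library centred on its median those splits were 969 and 969 in XG1 and 1012 and 815 in AMO1, and at 100 nM 611 and 888 in XG1 (321 and 486 uncentred) and 289 and 188 in AMO1 (53 and 215 uncentred). Centred counts or values are therefore given beside many of the uncentred ones. Centring sets the medians of the libraries equal, so it removes a fall shared by most genes along with any technical shift. Which of these it removed was not tested, and a call lost after centring is not thereby shown to be technical. Of 113 calls of single members, 27 were lost with centring and 5 with spike-in scaling. In bulk samples, fewer cells of a type and less RNA per cell cannot be told apart. XG1 1000 nM replicate 2 stood apart, with a median log2 deviation of -0.39 from the XG1 DMSO mean over all genes, and so did AMO1 DMSO replicate 3, with -0.18 from the mean of its own group. In that library 52 of the 59 genes lay below that mean, with a median of -0.20, near that of all genes. XG1 DMSO replicate 3 had 50 of the 59 below its own group mean, with a median deviation of -0.09 over all genes.

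Most of the 59 transcripts had negative changes after 6 h of YKL-5-124, 48 and 53 of them in XG1 and 51 and 56 in AMO1 at 100 and 1000 nM, and few rose. Most genes had negative changes too: of all 12204 tested, 6302 and 8987 in XG1 and 7988 and 9026 in AMO1, in the same order. In XG1, 11 of 59 fell and 0 rose at 100 nM, where 3.98% of all genes tested fell and 2.63% rose, and limma gave 27 of the 59 (45.8%) an unadjusted p under 0.05, against 20.5% of all genes. At 1000 nM in XG1, 27 fell and 2 rose, against 15.7% and 1.9% of all genes. In AMO1, 8 of 59 fell and 0 rose at 100 nM, where 1.76% of all genes fell and 0.434% rose, and 18 of the 59 (30.5%) had an unadjusted limma p under 0.05, against 15.1% of all genes. At 1000 nM in AMO1, 28 fell and 1 rose, against 15.4% and 1.78% of all genes. Since the list was made from these contrasts, nothing about the group is read from these shares. The median log2 change of the 59 genes, with that of all genes after it, was -0.27 and -0.01 in XG1 at 100 nM, -0.42 and -0.19 in XG1 at 1000 nM, -0.20 and -0.09 in AMO1 at 100 nM, and -0.45 and -0.18 in AMO1 at 1000 nM. With libraries centred on their medians, the genes called lower and higher were 19 and 1 in XG1 at 100 nM, 14 and 3 in XG1 at 1000 nM, 8 and 1 in AMO1 at 100 nM, and 14 and 2 in AMO1 at 1000 nM. The centred median of the 59 was -0.27 and -0.16 in XG1 and -0.02 and -0.16 in AMO1 at 100 and 1000 nM, with -0.0033 and 0.07 in XG1 and 0.09 and 0.11 in AMO1 over all genes.

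The count at 100 nM in AMO1 depended on the fit and on single libraries. It was 0 when only the 6 libraries compared were used, 17 without AMO1 DMSO replicate 3, and 4 without AMO1 DMSO replicate 1 or AMO1 100 nM replicate 2. Of the 25 alternatives, HNRNPDL, SRSF3, RBM39 and PRPF38B lost that call in 1 each, the fit of the 6 libraries, SRSF7 in 3, SRSF6 and SON in 5 each and SRRM2 in 17. The count of falls at 1000 nM in AMO1 was 17 without DMSO replicate 2 and 18 without 1000 nM replicate 1. In XG1 the count at 1000 nM was 13 without DMSO replicate 1, 16 without DMSO replicate 2 and 15 without 1000 nM replicate 2, and the count at 100 nM was 18 without AMO1 DMSO replicate 3, which entered through the shared spread. These counts are given without those over all genes in the same fits, so nothing particular to the listed genes is read from them.

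**Figure D1:**
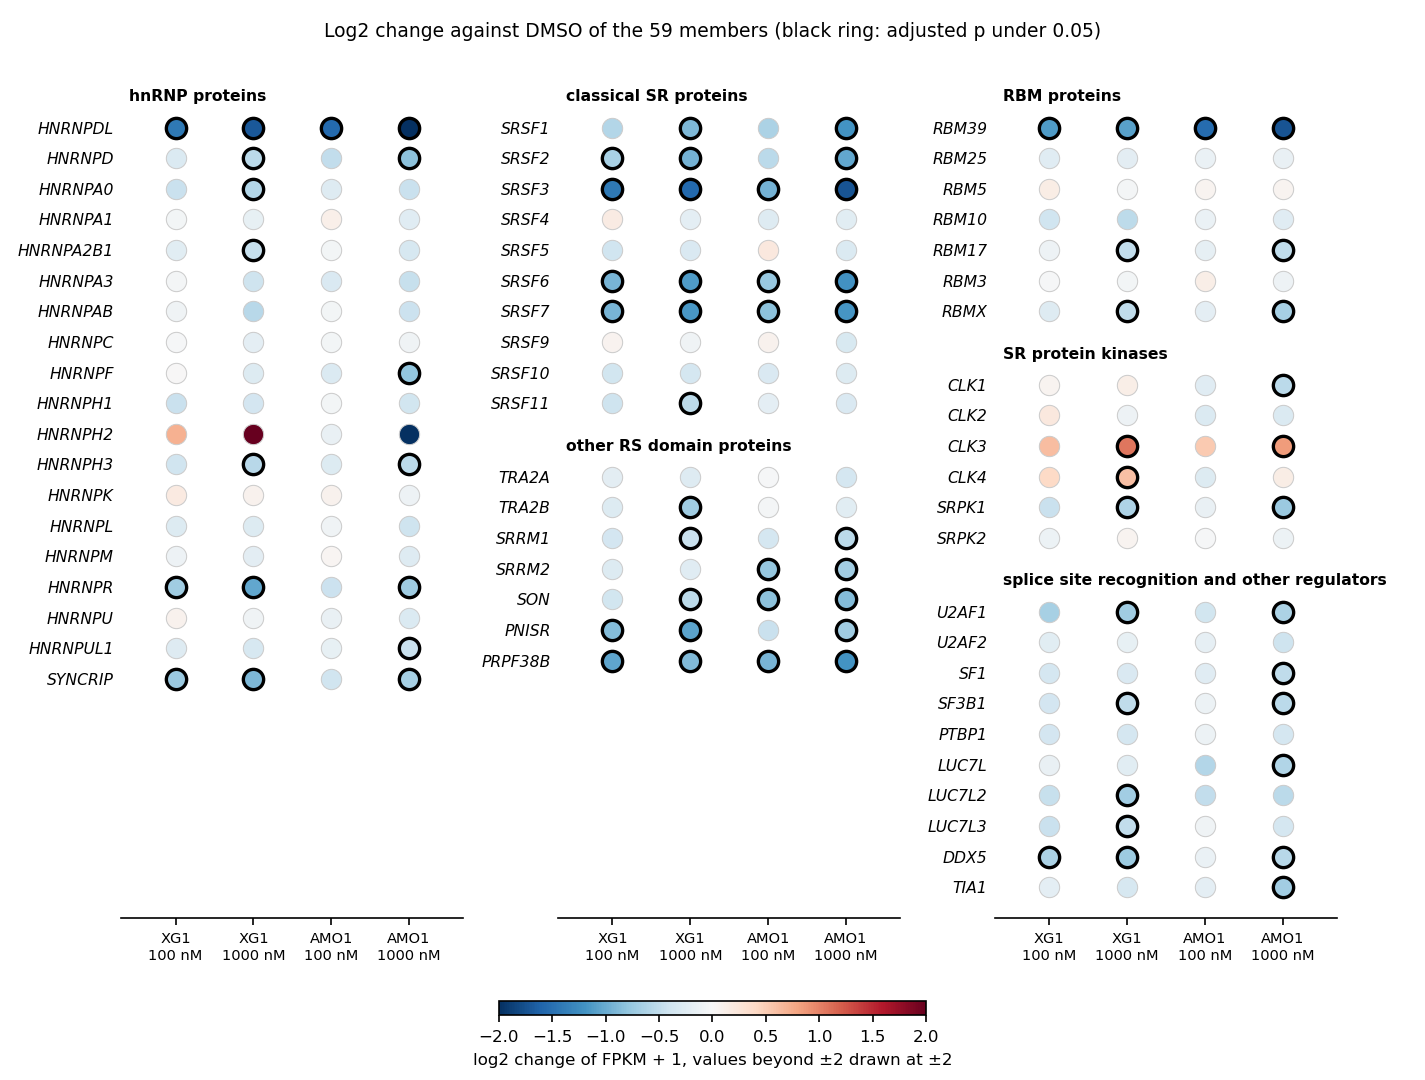
Log2 change of FPKM + 1 against DMSO (colour, blue lower and red higher, limited at -2 and 2) for the 59 genes in rows by role and the 4 comparisons in columns, with a black ring where limma's adjusted p was under 0.05. HNRNPDL, SRSF3, SRSF6, SRSF7, RBM39 and PRPF38B carry a ring in all 4 columns and CLK3 a red ring at 1000 nM in both lines.

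Counted over the 4 comparisons with DMSO, 6 genes fell in all 4: HNRNPDL, SRSF3, SRSF6, SRSF7, RBM39 and PRPF38B. A further 6 fell in 3 of them (HNRNPR, SYNCRIP, SRSF2, SON, PNISR and DDX5), 10 in 2 and 12 in 1. CLK3 rose in 2 and CLK4 in 1, and 23 genes were called in none. These classes follow the thresholds of 4 tests that share DMSO libraries within a line. A gene just outside a class need not differ from one inside it. The classes are given without the like counts over all genes tested, so nothing particular to the listed genes is read from their sizes.

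The 120 bases before the annotated start are shown for 5 of the genes that fell in all 4 comparisons and for CLK3, which rose, because these are the members that moved together or against the rest. They are the strand of the gene, 5′ to 3′, from RefSeq on GRCh38.p14, at the most upstream start listed, and were matched by symbol, since the files' own build, hg19, was not used for sequence. Capitals mark the TATA box letters TATAAA, the box written CCAAT, the GC box written GGGCGG and the E-box written CACGTG, each on either strand, and these letters were chosen after the data were seen.
HNRNPDL, chr4:82430463-82430582, minus strand: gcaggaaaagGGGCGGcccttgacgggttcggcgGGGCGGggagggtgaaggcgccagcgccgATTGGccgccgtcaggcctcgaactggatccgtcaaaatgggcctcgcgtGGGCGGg
SRSF3, chr6:36594242-36594361, plus strand: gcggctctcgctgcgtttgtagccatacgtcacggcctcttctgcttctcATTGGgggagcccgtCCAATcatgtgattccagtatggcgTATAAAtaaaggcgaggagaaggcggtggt
SRSF6, chr20:43457776-43457895, plus strand: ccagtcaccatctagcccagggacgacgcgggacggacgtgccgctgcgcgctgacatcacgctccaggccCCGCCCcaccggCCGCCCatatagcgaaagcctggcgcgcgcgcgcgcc
SRSF7, chr2:38751495-38751614, minus strand: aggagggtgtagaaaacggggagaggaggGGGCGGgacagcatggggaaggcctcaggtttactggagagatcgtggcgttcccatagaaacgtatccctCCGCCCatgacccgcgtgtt
PRPF38B, chr1:108692190-108692309, plus strand: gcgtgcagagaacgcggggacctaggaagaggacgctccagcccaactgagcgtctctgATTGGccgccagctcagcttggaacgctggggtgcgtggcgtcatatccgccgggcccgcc
CLK3, chr15:74608252-74608371, plus strand: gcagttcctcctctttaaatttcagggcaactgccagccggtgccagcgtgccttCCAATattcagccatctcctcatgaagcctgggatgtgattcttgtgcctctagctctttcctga

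The SRSF3 stretch holds TATAAA and a pair of CCAAT matches, on opposite strands. The HNRNPDL stretch holds 3 matches to GGGCGG and 1 CCAAT box on the opposite strand, SRSF6 and SRSF7 each hold 2 matches to GGGCGG, and the PRPF38B and CLK3 stretches each hold 1 CCAAT match. In the 250 bases before the start, TATAAA or its reverse complement stood in 7 of the 55 members in the table (12.7%) and in 5.23% of 8917 genes tested, and CCAAT in 26 members (47.3%) and 35.7% of those genes. GGGCGG stood in 32 members (58.2%) and 67.4% of the genes, and CACGTG, which is its own reverse complement, in 11 members (20.0%) and 9.20% of the genes. A match is a description of letters and not a site in use. RBM39, SRSF2, HNRNPA1 and TRA2A were not in the table.

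Among the 19 hnRNP genes, HNRNPDL had the largest called fall in every comparison, and 7 of 19 fell at 1000 nM in each line. Over all genes tested 15.7% fell in XG1 and 15.4% in AMO1 at that dose. With centred libraries 3 of the 19 fell in XG1 and 4 in AMO1, where 969 and 815 of all 12204 genes did. HNRNPDL, a relative of the AU-rich element binding protein HNRNPD that is known to splice its own 3′ end, was at 209, 189.7 and 174 FPKM with DMSO, 67.5, 73.4 and 69.99 FPKM at 100 nM, and 58.8, 57.97 and 56.8 FPKM at 1000 nM in XG1. The AMO1 libraries held 173, 166 and 112 FPKM with DMSO, 45.2, 50.3 and 54.4 FPKM at 100 nM, and 34.6, 36.9 and 36.98 FPKM at 1000 nM. All 6 treated libraries of each line lay below all 3 of its DMSO libraries, including AMO1 DMSO replicate 3, which was the lowest of its group. The log2 changes of HNRNPDL were -1.43 at 100 nM and -1.70 at 1000 nM in XG1, and -1.55 and -2.0 at the same doses in AMO1 (SE 0.15 each), with adjusted p between 7.44e-08 and 9.91e-06. Its FPKM + 1 at 1000 nM was thus 0.308 of the DMSO value in XG1 and 0.250 in AMO1, and with centred libraries the changes at 1000 nM were -1.44 and -1.71. The AMO1 call at 100 nM was lost when only the 6 libraries compared were fitted (adjusted p = 0.0688).

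HNRNPR and SYNCRIP, which are close relatives with roles in mRNA transport and stability, fell in the same 3 comparisons. HNRNPR averaged 38.3 ± 6.28 FPKM with DMSO, 23.02 ± 4.94 FPKM at 100 nM and 18.1 ± 3.27 FPKM at 1000 nM in XG1 (SD, n = 3), log2 changes of -0.72 and -1.04. In AMO1 it averaged 20.1 ± 2.03 FPKM with DMSO, 14.5 ± 0.0801 FPKM at 100 nM and 11.9 ± 0.814 FPKM at 1000 nM, and only the change at 1000 nM passed the test (-0.70, adjusted p = 0.00842), which it did not with centred libraries (adjusted p = 0.0777). SYNCRIP changed by -0.74 at 100 nM and -0.91 at 1000 nM in XG1 and by -0.67 at 1000 nM in AMO1, with -0.40 (adjusted p = 0.181) at 100 nM in AMO1. Groups did not overlap in any of these comparisons for either gene, also where the test was not passed. At 1000 nM HNRNPD and HNRNPH3 also fell in both lines, HNRNPD with changes of -0.54 in XG1 and -0.82 in AMO1 and HNRNPH3 with -0.56 and -0.53. At that dose HNRNPA0 (-0.59) and HNRNPA2B1 (-0.46), a reader of RNA transport signals, fell in XG1, with -0.45 and -0.33 in AMO1. HNRNPF (-0.78), which binds G-runs, and HNRNPUL1 (-0.44) fell in AMO1, with -0.27 and -0.33 in XG1, and a difference between the lines was called for none of these genes. Of these, HNRNPD, HNRNPH3, HNRNPA0 and HNRNPA2B1 in XG1 and HNRNPH3 and HNRNPUL1 in AMO1 were not called with centred libraries. The hnRNP genes named here other than HNRNPDL were chosen for naming after their values were seen.

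HNRNPA1, HNRNPC, HNRNPK, HNRNPM and HNRNPU, RNA binders known for packaging nascent transcripts, were picked after their values were seen, as 5 genes with small changes. Their changes over the 4 comparisons lay between -0.29 and 0.18, and none was called. HNRNPC, for example, was at 86.6, 86.5 and 81.95 FPKM at 1000 nM in AMO1, against 93.03, 98.9 and 79.05 FPKM with DMSO. The groups of HNRNPC overlapped there, and its change was -0.08 ± 0.12 (adjusted p = 0.743). HNRNPA3, HNRNPAB, HNRNPH1 and HNRNPL had changes of -0.42, -0.55, -0.37 and -0.27 at 1000 nM in XG1 and of -0.45, -0.42, -0.38 and -0.41 in AMO1, none of them called. HNRNPA1 has many near-identical processed copies in the genome, and how the authors' counting shared reads among them is not given, so its value is uncertain.

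Of the 10 classical SR genes, SRSF3, SRSF6 and SRSF7 fell at both doses in both lines, SRSF1 and SRSF2 fell at 1000 nM in both, and SRSF4, SRSF5, SRSF9 and SRSF10 were never called. The median change of the group was -0.50 at 100 nM and -0.72 at 1000 nM in XG1, and -0.42 and -0.68 in AMO1, and -0.46 and -0.39 at 1000 nM with centred libraries, XG1 before AMO1. Over all genes tested 3.98% and 15.7% fell in XG1 and 1.76% and 15.4% in AMO1, at 100 and 1000 nM. SRSF3, the smallest SR protein, which links splicing to mRNA export and 3′ end choice, was at 173, 167 and 147 FPKM with DMSO, 52.7, 63 and 62.6 FPKM at 100 nM, and 56.4, 48.97 and 56.5 FPKM at 1000 nM in XG1. AMO1 gave 119.9, 116 and 105 FPKM with DMSO, 55.9, 56.8 and 63.6 FPKM at 100 nM, and 29.6, 35.2 and 36.5 FPKM at 1000 nM. Every treated library lay below every DMSO library of its line, and in AMO1 every 1000 nM library also lay below every 100 nM library. The log2 changes of SRSF3 were -1.44 at 100 nM and -1.57 at 1000 nM in XG1, and -0.94 and -1.73 at the same doses in AMO1 (SE 0.13 each), with adjusted p between 8.06e-08 and 7.58e-04. SRSF3 was also the only member called between the doses, in AMO1, where 1000 nM stood -0.79 ± 0.13 from 100 nM (adjusted p = 0.0171, 0.18% of all genes called in that comparison), while in XG1 that step was -0.14 (adjusted p = 0.637). The AMO1 call between doses was lost in 7 of the alternatives tried.

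SRSF6, an SR protein known to act on an exon of tau, was at 37.3, 34.8 and 31.2 FPKM with DMSO, 17.4, 17.9 and 17.3 FPKM at 100 nM, and 15.8, 12.02 and 17.8 FPKM at 1000 nM in XG1. In AMO1 it was at 45.3, 40.1 and 34.8 FPKM with DMSO, 25.3, 20.6 and 23.4 FPKM at 100 nM, and 14.7, 16.6 and 18.8 FPKM at 1000 nM. No treated library reached any DMSO library of its line. The log2 changes of SRSF6 were -0.93 at 100 nM and -1.14 at 1000 nM in XG1, and -0.76 and -1.22 at the same doses in AMO1 (SE 0.16 each), with adjusted p between 4.85e-05 and 0.0131. The SRSF6 call at 100 nM in AMO1 was lost without AMO1 DMSO replicate 1, DMSO replicate 2 or 100 nM replicate 2 (adjusted p up to 0.151 over the alternatives). SRSF7, a zinc knuckle SR protein close to SRSF3 in sequence, was at 42.4, 48.5 and 51.8 FPKM at 1000 nM in XG1 against 107, 107 and 108 FPKM with DMSO, and at 37.5, 43.04 and 46.5 FPKM at 1000 nM in AMO1 against 113, 95.95 and 84.7 FPKM with DMSO. The groups stood apart in both lines. Its changes were -0.92 at 100 nM and -1.16 at 1000 nM in XG1, and -0.82 and -1.18 at the same doses in AMO1 (SE 0.16 each), and the AMO1 call at 100 nM was lost without AMO1 DMSO replicate 1 or 100 nM replicate 2 (adjusted p up to 0.155 over the alternatives).

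SRSF1, the founding SR protein and a known oncogene, was at 56.1, 43.2 and 58.6 FPKM at 1000 nM in XG1 against 93.6, 108 and 95 FPKM with DMSO, and at 88.6, 137 and 131 FPKM at 1000 nM in AMO1 against 335, 267 and 217 FPKM with DMSO. In each line these groups did not overlap, at a level that was higher in all AMO1 DMSO libraries than in any of XG1. SRSF1 changed by -0.90 ± 0.21 in XG1 (adjusted p = 0.00621) and by -1.20 ± 0.21 in AMO1 (adjusted p = 8.44e-04), and by -0.59 and -0.64 at 100 nM, where neither change passed (adjusted p = 0.112 and 0.129). SRSF2, a regulator of splicing and of transcriptional pausing, averaged 281 ± 52.6 FPKM with DMSO, 176 ± 17.1 FPKM at 100 nM and 144 ± 11.3 FPKM at 1000 nM in XG1, changes of -0.65 and -0.94. In AMO1 it averaged 173 ± 6.38 FPKM with DMSO, 119 ± 4.70 FPKM at 100 nM and 83.9 ± 9.51 FPKM at 1000 nM, changes of -0.53 (adjusted p = 0.0551) and -1.04. SRSF11 fell at 1000 nM in XG1 alone (-0.53, adjusted p = 0.0281), with -0.31 in AMO1, and was not called after centring. SRSF4, SRSF5, SRSF9 and SRSF10 ranged from -0.39 to 0.22 over the 4 comparisons. SRSF9 varied within groups, from 39.8 to 81.2 FPKM among the AMO1 DMSO libraries. SRSF6, SRSF7, SRSF1, SRSF2 and SRSF11 were named after their values were seen.

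**Figure D2:**
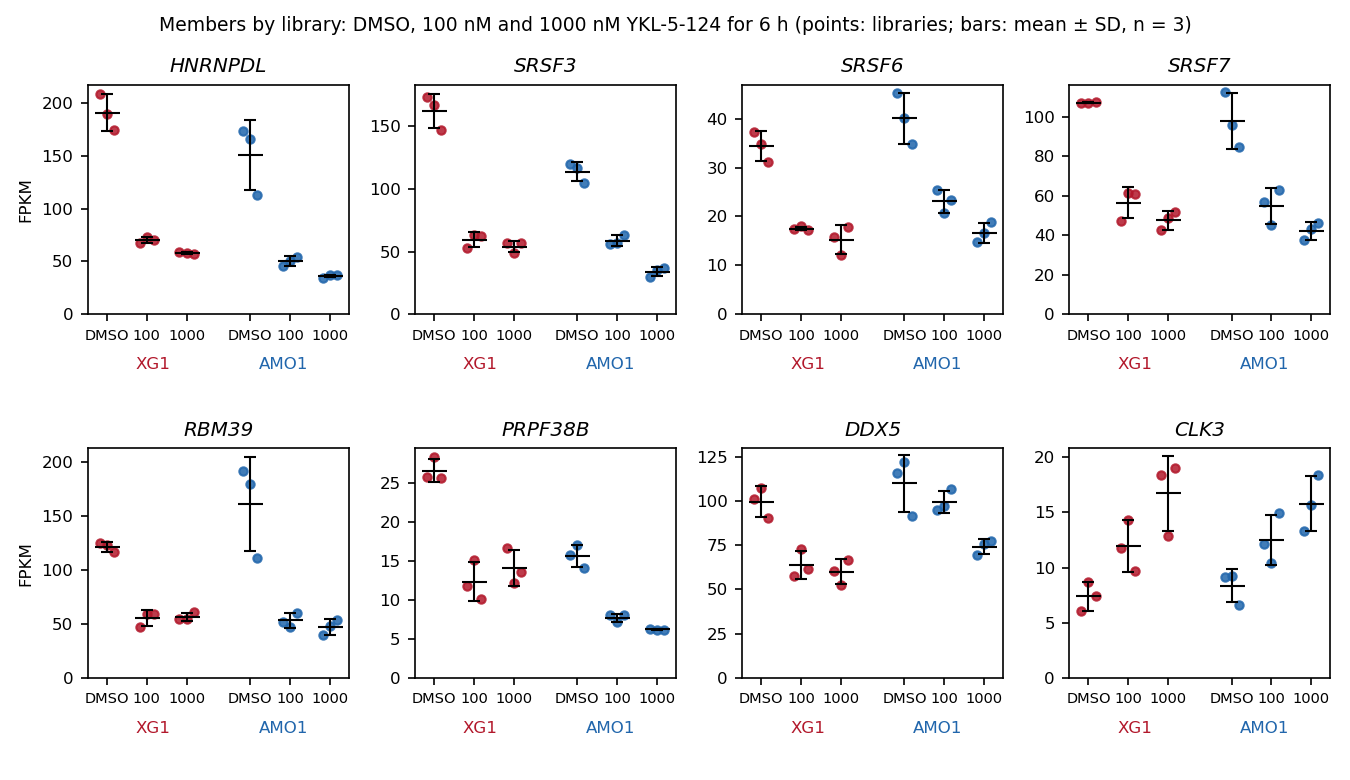
FPKM of 8 genes in each of the 18 libraries (points), with mean and SD over 3 libraries (bars), by treatment (DMSO, 100 and 1000 nM YKL-5-124 for 6 h) in XG1 and AMO1. HNRNPDL, SRSF3, SRSF6, SRSF7, RBM39 and PRPF38B lie below DMSO at both doses in both lines, DDX5 at both doses in XG1 and at 1000 nM in AMO1, and CLK3 above DMSO.

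The 7 other genes with arginine-serine repeats were lower in every comparison by their medians (-0.37 and -0.52 in XG1 and -0.44 and -0.70 in AMO1 at 100 and 1000 nM), and 5 of 7 fell at 1000 nM in each line. With centred libraries 3 fell in XG1 and 2 in AMO1 at 1000 nM, where 969 and 815 of all 12204 genes did. Before centring 15.7% of all genes fell in XG1 and 15.4% in AMO1 at that dose. PRPF38B, a protein of the spliceosome related to the yeast factor Prp38, was at 25.7, 28.3 and 25.6 FPKM with DMSO, 11.8, 15.1 and 10.1 FPKM at 100 nM, and 16.6, 12.1 and 13.6 FPKM at 1000 nM in XG1. The AMO1 libraries held 15.7, 16.98 and 14.1 FPKM with DMSO, 8.01, 7.09 and 8.0 FPKM at 100 nM, and 6.31, 6.16 and 6.12 FPKM at 1000 nM. All treated libraries lay below all DMSO libraries of their line. The log2 changes were -1.06 at 100 nM and -0.88 at 1000 nM in XG1, and -0.93 and -1.20 at the same doses in AMO1 (SE 0.16 each), with adjusted p between 5.32e-05 and 0.00287. PNISR, an arginine-serine rich nuclear protein of little known function, was at 60.9, 66.7 and 67.2 FPKM with DMSO, 26.6, 45.97 and 35.1 FPKM at 100 nM, and 29.8, 26.6 and 35.1 FPKM at 1000 nM in XG1. AMO1 gave 38.5, 43.1 and 28.1 FPKM with DMSO, 25.7, 26.2 and 26.9 FPKM at 100 nM, and 20.6, 22.9 and 21.6 FPKM at 1000 nM. The XG1 groups stood well apart, while in AMO1 the 100 nM libraries lay just below DMSO replicate 3. PNISR changed by -0.87 (adjusted p = 0.00595) and -1.07 (adjusted p = 4.88e-04) in XG1 and by -0.44 (adjusted p = 0.228) and -0.71 (adjusted p = 0.00981) in AMO1, the last not called after centring (adjusted p = 0.0753).

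SON, a large nuclear speckle protein, was lower in AMO1 at both doses, with 59.9, 53.5 and 58.6 FPKM with DMSO, 32.1, 29.1 and 35.3 FPKM at 100 nM, and 27.04, 33.03 and 33.7 FPKM at 1000 nM. The AMO1 groups did not overlap at either dose. Its changes were -0.82 and -0.86 in AMO1 and -0.39 (adjusted p = 0.210) and -0.52 (adjusted p = 0.0431) in XG1, and the difference between the lines was not called. After centring SON fell in AMO1 and was not called in XG1, where its call was lost under 14 of 25 alternatives. SRRM2, the scaffold of nuclear speckles, fell in AMO1 (-0.77 and -0.70) and had changes of -0.27 and -0.24 in XG1, which were not called. Its AMO1 call at 100 nM was lost under 17 of 25 alternatives (adjusted p up to 0.260), and that at 1000 nM under 6, among them centring (adjusted p = 0.0855). In AMO1 SRRM2 rested on DMSO replicates at 52.04, 48.4 and 28.4 FPKM, the last of which lay within the 1000 nM libraries at 21.6, 24.3 and 30.2 FPKM. SRRM1, a co-activator that bridges exon-bound SR proteins, fell at 1000 nM in both lines (-0.44 in XG1 and -0.53 in AMO1), in neither after centring. TRA2B, an SR-like activator of exons, fell at 1000 nM in XG1, with 52.1, 35.3 and 55 FPKM against 83.4, 78.7 and 69.8 FPKM with DMSO (-0.71, adjusted p = 0.00559), and stood at -0.23 (adjusted p = 0.379) in AMO1. Its paralogue TRA2A was between -0.35 and -0.02 over the 4 comparisons and never called. SON, SRRM1, SRRM2, TRA2A and TRA2B were named after their values were seen.

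Of the 7 RBM genes, RBM39 fell in all 4 comparisons, RBM17 and RBMX at 1000 nM in both lines, and RBM3, RBM5, RBM10 and RBM25 in none. At 1000 nM 3 of 7 thus fell in each line, where 15.7% of all genes fell in XG1 and 15.4% in AMO1. With centred libraries 1 of 7 fell in each line at that dose, where 969 and 815 of all 12204 genes did. RBM39, a partner of U2AF-type splicing factors and the protein degraded by aryl sulfonamide drugs, was at 125, 123 and 116 FPKM with DMSO, 46.6, 59.4 and 59.3 FPKM at 100 nM, and 54.6, 54.2 and 61.02 FPKM at 1000 nM in XG1. In AMO1 it was at 192, 179.6 and 111 FPKM with DMSO, 52.1, 47.2 and 60.4 FPKM at 100 nM, and 39.4, 47.9 and 53.8 FPKM at 1000 nM. All 12 treated libraries lay between 39.4 and 61.02 FPKM, below all 6 DMSO libraries, the lowest of which was AMO1 DMSO replicate 3. The log2 changes of RBM39 were -1.13 at 100 nM and -1.09 at 1000 nM in XG1, and -1.54 and -1.72 at the same doses in AMO1 (SE 0.18 each), with adjusted p between 4.77e-06 and 7.14e-04. They were -0.83 and -1.43 at 1000 nM with centred libraries, and the difference of the lines' responses at 1000 nM was 0.64 ± 0.25 (adjusted p = 0.362). RBM17, which binds the U2 snRNP protein SF3B1, changed by -0.49 in XG1 and -0.51 in AMO1 at 1000 nM, and RBMX, an hnRNP of the X chromosome, by -0.50 and -0.67, none of these called after centring. RBM5, RBM25 and the cold-inducible RBM3 lay between -0.24 and 0.15, and RBM10, a regulator often mutated in lung cancer, between -0.52 and -0.13. RBMX shares sequence with retrotransposed copies, among them RBMXL1, so its value is uncertain.

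The 6 SR protein kinases did not move one way. CLK3 rose at 1000 nM in both lines, SRPK1 fell at 1000 nM in both, and SRPK2 and CLK2 were called in no comparison. At 1000 nM 2 rose and 1 fell in XG1, and 1 rose and 2 fell in AMO1. Over all genes tested 1.9% rose and 15.7% fell in XG1 at that dose, and 1.78% and 15.4% in AMO1. With centred libraries 3 rose and 1 fell in XG1, and 2 rose and 1 fell in AMO1. CLK3, a nuclear kinase of the CDC2-like family, was at 6.06, 8.71 and 7.43 FPKM with DMSO, 11.8, 14.3 and 9.66 FPKM at 100 nM, and 18.3, 12.8 and 18.98 FPKM at 1000 nM in XG1. The AMO1 libraries held 9.19, 9.24 and 6.61 FPKM with DMSO, 12.1, 10.4 and 14.9 FPKM at 100 nM, and 13.3, 15.7 and 18.4 FPKM at 1000 nM. All treated libraries lay above all DMSO libraries of their line, at both doses. CLK3 changed by 0.62 (adjusted p = 0.0712) and 1.07 (adjusted p = 0.00126) in XG1, and by 0.53 (adjusted p = 0.188) and 0.85 (adjusted p = 0.00622) in AMO1, with an SE of 0.20. With centred libraries all 4 changes of CLK3 were called, from 0.63 to 1.33, and both calls at 1000 nM held under all 25 alternatives. SRPK1, the main cytoplasmic kinase of SR proteins, was at 35.96, 33.8 and 32.1 FPKM with DMSO, 20.3, 28.8 and 25.5 FPKM at 100 nM, and 23.03, 17.1 and 26.1 FPKM at 1000 nM in XG1. AMO1 gave 14.4, 17.02 and 14.3 FPKM with DMSO, 14.2, 12.6 and 13.9 FPKM at 100 nM, and 8.53, 8.64 and 9.07 FPKM at 1000 nM. At 1000 nM no library of either line reached its DMSO group. SRPK1 changed by -0.62 (adjusted p = 0.0127) in XG1 and -0.73 (adjusted p = 0.00393) in AMO1 at 1000 nM and by -0.45 and -0.15 at 100 nM, which were not called.

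CLK4 was at 8.54, 3.93 and 7.14 FPKM at 1000 nM in XG1, against 4.49, 3.89 and 3.06 FPKM with DMSO. Replicate 2 of the treated libraries lay within the DMSO range. Its change of 0.60 had an adjusted p of 0.0495 and was lost under 20 of 25 alternatives, and in AMO1 it was 0.16 (adjusted p = 0.693). With centred libraries CLK4 was called higher at 1000 nM in both lines (0.86 in XG1 and 0.45 in AMO1). CLK1 changed by 0.13 in XG1 (adjusted p = 0.671) and by -0.54 in AMO1 (adjusted p = 0.0313) at 1000 nM. The difference of those responses was 0.67 ± 0.24 and did not pass (adjusted p = 0.260), and with centred libraries CLK1 was called higher in XG1 (0.39, adjusted p = 0.0426) and was not called in AMO1 (-0.25). CLK2 lay between -0.29 and 0.21 and SRPK2 between -0.12 and 0.05, neither called. CLK1, CLK2 and CLK4 were named after their values were seen.

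The 10 splice site recognition factors and other regulators all had negative changes in the 4 comparisons before centring, of which 1 passed at 100 nM and 5 at 1000 nM in XG1, and 0 at 100 nM and 6 at 1000 nM in AMO1. Negative changes were also found, at 100 and 1000 nM, in 6302 and 8987 of all 12204 genes in XG1 and 7988 and 9026 in AMO1. At 100 nM in AMO1, 2 of the 10 had an unadjusted limma p under 0.05. After centring 4 and 1 fell in XG1 and 0 and 1 in AMO1, lower dose before higher. In that order, 888 and 969 of all 12204 genes fell in XG1 and 188 and 815 in AMO1 after centring. Before centring 3.98% and 15.7% of all genes fell in XG1 and 1.76% and 15.4% in AMO1. DDX5, an RNA helicase of splicing and transcription, was at 101, 108 and 90.3 FPKM with DMSO, 57.6, 72.6 and 61.3 FPKM at 100 nM, and 60.3, 52.7 and 66.7 FPKM at 1000 nM in XG1. In AMO1 it was at 116, 122 and 91.6 FPKM with DMSO, 94.8, 97.1 and 107 FPKM at 100 nM, and 69.4, 75.6 and 77.5 FPKM at 1000 nM. The XG1 groups stood apart at both doses, whereas in AMO1 the 100 nM libraries overlapped DMSO and the 1000 nM libraries did not. DDX5 changed by -0.64 and -0.73 in XG1 and by -0.13 (adjusted p = 0.748) and -0.55 in AMO1, and the difference of the lines' responses at 100 nM was -0.50 ± 0.20 (adjusted p = 0.448). After centring DDX5 was not called in AMO1 at 1000 nM (-0.26, adjusted p = 0.121). TIA1, which binds U-rich sequence after weak 5′ splice sites, was at 6.38, 6.92 and 5.92 FPKM with DMSO, 5.004, 6.83 and 4.79 FPKM at 100 nM, and 5.37, 3.71 and 5.79 FPKM at 1000 nM in XG1. The AMO1 libraries held 7.60, 7.22 and 8.02 FPKM with DMSO, 6.98, 6.02 and 6.56 FPKM at 100 nM, and 3.81, 4.70 and 4.52 FPKM at 1000 nM. At 1000 nM all libraries lay below DMSO in both lines, by the wider gap in AMO1. The AMO1 change there was -0.69 (adjusted p = 0.00800), against -0.33 (adjusted p = 0.194) in XG1.

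U2AF1, the subunit of U2AF that reads the AG of the 3′ splice site, averaged 813 ± 93.3 FPKM at 1000 nM in XG1 against 1321 ± 95.8 FPKM with DMSO, and 979 ± 196 FPKM in AMO1 against 1556 ± 475 FPKM. The changes of -0.70 and -0.64 passed the test, the AMO1 groups overlapped, and neither was called after centring. SF3B1, the U2 snRNP subunit that clamps the branch point, changed by -0.50 in XG1 and -0.54 in AMO1 at 1000 nM, and in neither after centring. U2AF2, the polypyrimidine tract subunit, and PTBP1, which competes with it, were between -0.41 and -0.11 and never called. SF1, the first branch point binder, fell past the threshold in AMO1 (-0.51, adjusted p = 0.0108), with -0.30 (adjusted p = 0.116) in XG1, and not after centring. Of the U1 snRNP partners, LUC7L fell at 1000 nM in AMO1 (-0.60) and LUC7L2 and LUC7L3 in XG1 (-0.69 and -0.49), none of them after centring. A second copy of U2AF1 is present in some assemblies of the genome, and whether that bears on these values, made on hg19, was not checked. The genes of this paragraph were named after their values were seen.

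Calls shared by the lines are given without the like overlap over all genes, so no agreement particular to the 59 is read from them. At 100 nM the 6 genes that fell in both were 54.55% of the 11 in XG1 and 75% of the 8 in AMO1, namely HNRNPDL, PRPF38B, RBM39, SRSF3, SRSF6 and SRSF7. At 1000 nM the 21 genes that fell in both were 77.78% of the 27 in XG1 and 75% of the 28 in AMO1. HNRNPA0, HNRNPA2B1, LUC7L2, LUC7L3, SRSF11 and TRA2B were called lower in XG1 alone, and CLK1, HNRNPF, HNRNPUL1, LUC7L, SF1, SRRM2 and TIA1 in AMO1 alone. A direct comparison of the lines' responses called 0 of the 59 at 100 nM and 0 at 1000 nM, where 0.156% and 0.68% of all genes were called, and limma gave 4 members (6.78%) an unadjusted p under 0.05 at each dose, against 8.78% and 10.1% of all genes. At 1000 nM, 54 of the 59 changes had the same sign in both lines, and so had 8969 of the 12204 genes tested. Across the 58 genes other than HNRNPH2, the XG1 and AMO1 changes had Pearson's r = 0.750 and Spearman's rho = 0.584 at 100 nM and r = 0.867 and rho = 0.751 at 1000 nM. Over all 59 genes, with HNRNPH2, r was 0.725 and rho 0.575 at 100 nM and r was 0.285 and rho 0.663 at 1000 nM, so the r at 1000 nM rests on leaving out that gene, which was done after its values were seen. Across all genes tested, with no gene left out, r was 0.237 and rho 0.371 at 100 nM and r was 0.345 and rho 0.471 at 1000 nM. These describe genes, which are not independent replicates, and the changes within a line share their DMSO libraries. The list was put together with these changes in view, so no agreement particular to the 59 is read from r, rho or the shared signs. Changes over all genes also spread wider, from -7.13 to 11.7 in AMO1 at 1000 nM, against -2.0 to 0.85 for the 58. With centred libraries 10 genes fell in both lines at 1000 nM: HNRNPDL, SYNCRIP, SRSF1, SRSF2, SRSF3, SRSF6, SRSF7, RBM39, SRPK1 and PRPF38B.

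**Figure D3:**
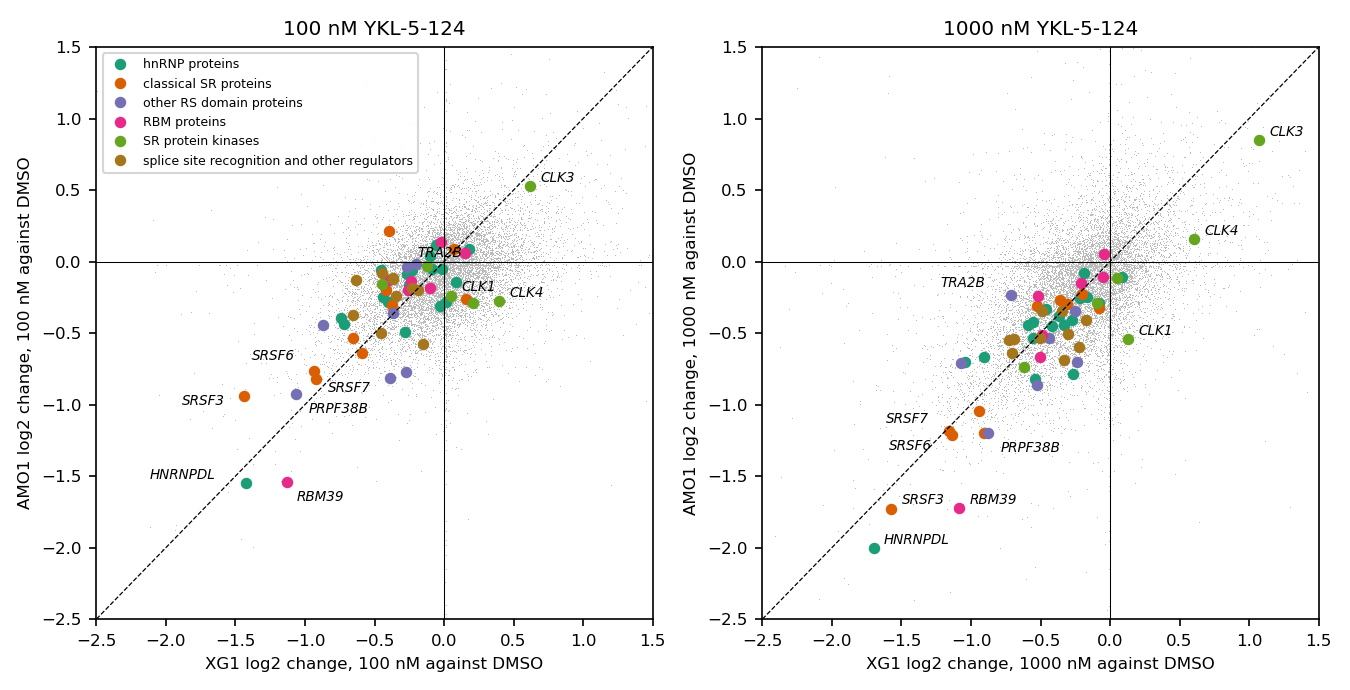
Log2 change against DMSO in XG1 (x axis) and AMO1 (y axis) at 100 nM (left) and 1000 nM (right), with the 58 genes other than HNRNPH2 in colour by role, all genes tested in grey, and a dashed line of equal change. HNRNPDL and SRSF3 lie lowest in both lines at 1000 nM and CLK3 highest.

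Between the doses, 0 of the 59 genes were called in XG1 and 1, SRSF3, in AMO1, and limma gave 4 (6.78%) and 17 (28.8%) of them an unadjusted p under 0.05, XG1 before AMO1, against 16.35% and 10.5% of all genes. In all, 0.139% of the genes tested were called between the doses in XG1. Both doses were set against the same DMSO libraries, so their values are given side by side. In AMO1 the changes at 100 and 1000 nM were -0.64 and -1.20 for SRSF1, -0.53 and -1.04 for SRSF2, -0.15 and -0.73 for SRPK1, and -1.54 and -1.72 for RBM39. In XG1 those of RBM39 were -1.13 and -1.09, those of PRPF38B -1.06 and -0.88, and those of HNRNPR -0.72 and -1.04. RBM39 and PRPF38B in XG1 were thus about as low at 100 nM as at 1000 nM, by libraries that overlapped between the doses.

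In DMSO the lines differed in the level of most of these genes, as they did over all genes. Of the 59, 24 were higher and 11 lower in XG1, against 28.3% higher and 34.4% lower over all genes tested. Without HNRNPH2, whose difference was not called once summed with a read-through row, 24 were higher and 10 lower of 58. The line difference of the 44 spike-in RNAs used had an SD of 0.552 log2 from one spike-in to another. A measure of another kind, the SD of a spike-in over the libraries of a line, had a median of 0.139 in XG1 and 0.143 in AMO1. Differences between the lines thus carry an error the replicates do not show. RBMX was at 550.5, 426 and 396 FPKM in XG1 against 101, 118 and 124 FPKM in AMO1, a log2 difference of 1.98 ± 0.16 (adjusted p = 1.25e-09). SRSF9 was at 188, 154 and 128 FPKM in XG1 against 39.8, 63.4 and 81.2 FPKM in AMO1 (1.38 ± 0.29, adjusted p = 4.72e-04). SRSF4, a large SR protein, was at 41.9, 43.6 and 37.1 FPKM in XG1 against 14.5, 18.1 and 14.5 FPKM in AMO1 (1.33 ± 0.19, adjusted p = 2.96e-06). None of these groups overlapped, and all 3 genes were higher in XG1. SRPK2, a kinase of SR proteins best known in neurons, was at 13.1, 13.2 and 11.9 FPKM in XG1 against 70.2, 71.1 and 36.9 FPKM in AMO1 (-2.08 ± 0.20, adjusted p = 1.47e-08), while its relative SRPK1 stood the other way (1.11, adjusted p = 5.66e-06). RBM10 was at 11.2, 12.2 and 9.61 FPKM in XG1 against 44.99, 41.7 and 27.9 FPKM in AMO1 (-1.69 ± 0.18, adjusted p = 8.38e-08). RBM10 and SRPK2 were thus lower in all 3 XG1 libraries, and AMO1 DMSO replicate 3 was the lowest of its group for both. SRSF1 (-1.44), TRA2A (-1.31) and HNRNPL (-1.16) were also lower in XG1, and SF1 (1.06) and HNRNPR (0.89) higher, 5 genes named after their values were seen.

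HNRNPH2, a G-run binding relative of HNRNPH1, had the largest line difference and also the least stable row. It was at 3.57, 0.120 and 0.228 FPKM in XG1 DMSO libraries against 80.8, 83.9 and 49.6 FPKM in AMO1 DMSO libraries (-5.26 ± 1.55, adjusted p = 0.0102). The tables also hold a row for RPL36A-HNRNPH2, a read-through transcript that contains HNRNPH2, which was at 64.5, 57.1 and 54.7 FPKM in XG1 and 0.128, 0.146 and 0.297 FPKM in AMO1. The value stood mainly in 1 row or the other in most libraries, and was split between them in some. At 1000 nM in XG1, HNRNPH2 was at 32.4, 30.1 and 0.106 FPKM and the read-through at 12.4, 0.105 and 42.4 FPKM. At 1000 nM in AMO1, HNRNPH2 was at 45.7, 48.9 and 0.101 FPKM and the read-through at 0.0904, 0.0931 and 53.7 FPKM. In replicate 3 of that group the whole value stood in the read-through row, and in the other replicates in the HNRNPH2 row. Summed, the rows gave 68.05, 57.2 and 54.9 FPKM in XG1 and 80.95, 84.1 and 49.9 FPKM in AMO1, a line difference of -0.22 that was not called (adjusted p = 0.328), in a sum chosen after the data were seen. The changes of the HNRNPH2 row with treatment, 2.50 in XG1 and -2.37 in AMO1 at 1000 nM, were not called. The sum was at 44.7, 30.3 and 42.5 FPKM at 1000 nM in XG1 and 45.8, 48.98 and 53.8 FPKM at 1000 nM in AMO1. In XG1 it was below all DMSO libraries and changed by -0.62 (adjusted p = 0.0296), and in AMO1, where the groups overlapped, by -0.49 (adjusted p = 0.0838).

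**Figure D4:**
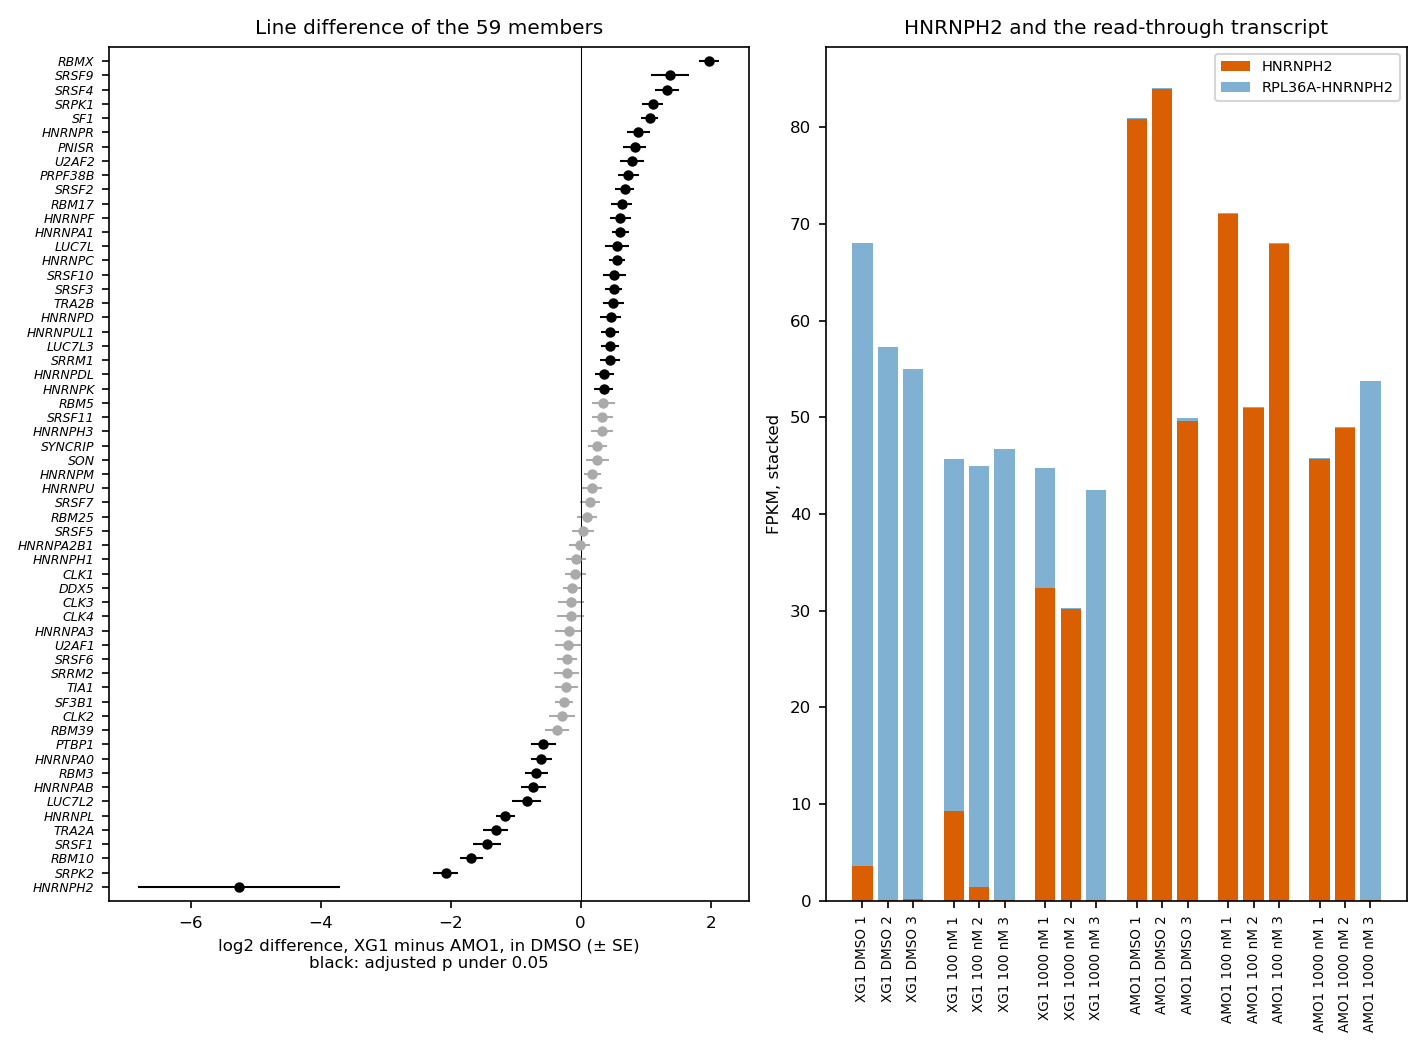
Left, log2 difference in DMSO, XG1 minus AMO1, with its SE, for the 59 genes (black where the adjusted p was under 0.05). Right, FPKM of HNRNPH2 and of the RPL36A-HNRNPH2 read-through stacked in each library, where the sum varies less than either row.

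Other splicing genes, from lists written with earlier results of these data known, were set beside the 59. Of 74 tested genes of the core spliceosome, 4 fell at 100 nM and 11 at 1000 nM in XG1, and 0 and 12 in AMO1, and none rose (10 had an unadjusted limma p under 0.05 at 100 nM in AMO1). Over all genes 3.98% and 15.7% fell in XG1 and 1.76% and 15.4% in AMO1, so at 1000 nM the core genes were near the background. Their median change was -0.12 and -0.25 in XG1 and -0.06 and -0.21 in AMO1, and with centred libraries -0.11 and 0.0045 in XG1 and 0.11 and 0.08 in AMO1. After centring 12 fell and 1 rose at 100 nM and 7 fell and 3 rose at 1000 nM in XG1, and 0 fell and 0 rose at 100 nM and 7 fell and 5 rose at 1000 nM in AMO1. Without AMO1 DMSO replicate 3 the falls were 13 and 17 in XG1 and 7 and 28 in AMO1, and over single libraries left out they ranged from 1 to 13 and 4 to 17 in XG1 and from 0 to 7 and 7 to 28 in AMO1. DHX15, the helicase that takes spliceosomes apart, was at 100 nM in XG1 at 23.8 ± 3.25 FPKM against 43.1 ± 4.49 FPKM (log2 change -0.84 ± 0.15, adjusted p = 0.00203). SNW1, a scaffold of the active spliceosome, was at 1000 nM in XG1 at 21.2 ± 2.25 FPKM against 49.4 ± 2.53 FPKM (log2 change -1.18 ± 0.17, adjusted p = 9.68e-05). LSM6, of the ring that binds U6 snRNA, was at 1000 nM in AMO1 at 15.7 ± 1.69 FPKM against 37.9 ± 6.41 FPKM (log2 change -1.21 ± 0.25, adjusted p = 0.00243), and its change in XG1 was -0.99. The other core genes that the naming rule gave were LSM2 (-0.78) and the minor spliceosome protein SNRNP35 (-0.74) at 100 nM in XG1, CDC5L (-0.98) at 1000 nM in XG1, and the Sm protein SNRPD1 (-0.94) and LSM8 (-0.90) at 1000 nM in AMO1.

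Of 82 tested genes among other splicing regulators, 11 fell and 2 rose at 100 nM and 25 fell and 2 rose at 1000 nM in XG1, and 5 fell and 0 rose at 100 nM and 22 fell and 3 rose at 1000 nM in AMO1 (21 had an unadjusted limma p under 0.05 at 100 nM). Over all genes 3.98% fell and 2.63% rose at 100 nM in XG1, and 15.7% and 1.9% at 1000 nM. In AMO1 1.76% fell and 0.434% rose at 100 nM, and 15.4% and 1.78% at 1000 nM. Since this list too was written with earlier results known, nothing is read from its shares. After centring 22 fell and 3 rose at 100 nM and 16 fell and 6 rose at 1000 nM in XG1, and 5 fell and 3 rose at 100 nM and 11 fell and 11 rose at 1000 nM in AMO1, and the centred medians were -0.14 and -0.02 in XG1 and 0.06 and 0.04 in AMO1. Of all 12204 genes, 888 fell and 611 rose at 100 nM and 969 fell and 969 rose at 1000 nM in XG1 after centring. In AMO1 188 fell and 289 rose at 100 nM and 815 fell and 1012 rose at 1000 nM. Over single libraries left out the falls ranged from 5 to 15 and 15 to 30 in XG1 and from 1 to 14 and 12 to 30 in AMO1, where 14 was the count at 100 nM without AMO1 DMSO replicate 3 and 1 that without AMO1 DMSO replicate 1 or 2 or 100 nM replicate 1 or 2. DDX17, the paralogue of DDX5, was at 1000 nM in XG1 at 28.4 ± 4.67 FPKM against 88.1 ± 0.479 FPKM (log2 change -1.61 ± 0.18, adjusted p = 8.52e-06), and its other changes were -1.54 at 100 nM in XG1 and -0.96 and -1.17 in AMO1. FUBP1, a single-strand DNA and RNA binder, was at 1000 nM in AMO1 at 38.1 ± 0.930 FPKM against 117 ± 25.8 FPKM (log2 change -1.56 ± 0.18, adjusted p = 1.23e-05), with -0.90 at 100 nM, and -1.43 and -1.54 in XG1. DDX17 and FUBP1 thus fell in all 4 comparisons, as 6 of the 59 did. Further falls were those of CDK12, a kinase of RNA polymerase II (-1.03 at 100 nM in XG1), RBM4B (-1.88 at 1000 nM in XG1), TARDBP, which encodes TDP-43 (-0.78 at 100 nM in AMO1), and RBM23, a relative of RBM39 (-1.10 at 1000 nM in AMO1). Rises were those of RBM15 (1.07 and 0.96 in XG1 and 0.66 at 1000 nM in AMO1) and of the cyclins of the CDK11 kinases, CCNL2 (0.57 at 100 nM in XG1 and 0.88 at 1000 nM in AMO1) and CCNL1 (0.68 and 0.54 at 1000 nM in XG1 and AMO1). Of 10 genes of nonsense-mediated decay, SMG9, a regulator of the SMG1 kinase, was the 1 called, lower in all 4 comparisons, and after centring 3 others were called higher at 1000 nM in XG1 and 1 in AMO1. At 1000 nM in XG1 it was at 2.49 ± 0.792 FPKM against 9.78 ± 0.381 FPKM (log2 change -1.65 ± 0.19, adjusted p = 8.59e-06), and in AMO1 its change was -1.17.

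**Figure D5:**
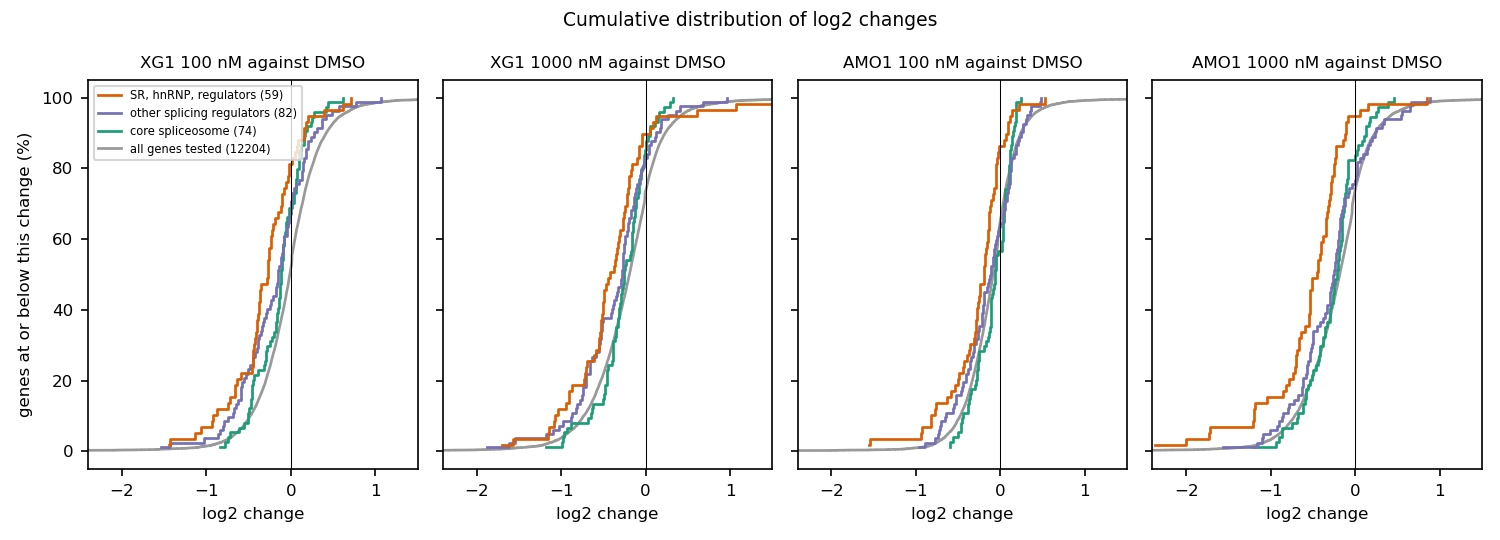
Share of genes (y axis, percent) with a log2 change at or below the value on the x axis, in each comparison with DMSO, for the 59 SR, hnRNP and regulator genes, 82 other splicing regulators, 74 core spliceosome genes and all 12204 genes tested. The line of the 59 genes lies left of that of all genes over most of its length, with medians of -0.27, -0.42, -0.20 and -0.45 from left to right.

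The annotated transcripts of the 59 genes, which the list was not chosen by, are given as a description with no test. In GENCODE 29, matched by symbol, 47 of them (79.66%) have at least 1 annotated transcript of the nonsense-mediated decay class, against 44.04% of 10637 coding genes tested, 47.3% of the core spliceosome genes and 51.22% of the other splicing regulators. A transcript with a retained intron is annotated for 45 (76.27%), against 58.57% of the coding genes. These are annotations on another build and not measurements in these cells, since FPKM per gene does not tell the transcripts of a gene apart. Within the 59, such a decay transcript is annotated for 5 of the 6 genes that fell in all 4 comparisons and for 17 of the 23 called in none. HNRNPDL has 4 such transcripts and CLK3 has 3. The median span of the gene on the chromosome was 8.69 kb for those 6, 20.6 kb for those 23 and 23.6 kb for all 59, against 30.5 kb for the coding genes. In the same annotation 16 of the 59 overlap a gene on the opposite strand, among them CLK3 (EDC3), SRPK1 (LHFPL5), SRSF2 (MFSD11), SON (GART and DONSON), SRRM2 (an antisense RNA) and DDX5 (CEP95), and no source used here says whether reads were counted by strand, so their values are uncertain to that extent.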

How the data were processed

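RNA of 18 libraries (6 groups of 3) was read at transcript 3′ ends by QuantSeq, per the labels' protocols. HISAT2, Cuffnorm and the build hg19 are named in the submitters' processing notes. The deposited values are taken to be FPKM because Cuffnorm is named there, and the file headers name no unit. No source used here gives software versions, annotation, counting strand or depth, and no counting interval could be set. The tables hold 26249 genes and 92 spike-in RNAs, and no value was 0.

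The 12204 genes whose mean reached 1 FPKM in some group entered limma 3.58.1 (R 4.3.3, statmod 1.5.0; trend and robust) on log2(FPKM + 1), with 1 mean per group in 1 fit of 18 libraries. Tests were two-sided, with Benjamini-Hochberg adjustment over those genes and a threshold of 0.05. The fit was tested on simulated data. Alternatives were pseudocounts of 0.1 and 5, no filter, libraries centred on their medians, spike-in scaling, only the libraries compared, a replicate block and leaving out each library. A sum of HNRNPH2 and LUC7L2 with their read-through rows was added after seeing the data.

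The 59 members, their roles, the other lists and the motifs were chosen with earlier results of these data known. Values in every library are given for the called member of each role with the largest rise or fall whose groups did not overlap, and for the 3 largest line differences per direction. Of the other lists, up to 3 called genes per direction and comparison are named. Genes named beyond this were chosen after their values were seen.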

Additional observations from a re-analysis of the deposited data

How the results depend on the processing

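Of 113 calls of single members, 60 held under every alternative, no change reversed, and the losses were counted per setting. They numbered 2 with a pseudocount of 0.1, 0 with a pseudocount of 5, 5 with spike-in scaling, 20 with no filter on low genes, 27 with libraries centred on their medians, 37 with only the libraries compared and 33 with the replicate block. Centring gave 1 rise and 19 falls in XG1 at 100 nM, 14 falls in XG1 at 1000 nM, 1 rise in AMO1 at 100 nM, and 2 rises and 14 falls in AMO1 at 1000 nM. In XG1 at 1000 nM, 1 gene rose with a pseudocount of 0.1, no filter, spike-in scaling, only the libraries compared or the block, and 17 fell with no filter. With only the libraries compared, fewer samples set the spread, and 0 genes fell in AMO1 at 100 nM, 18 fell at 1000 nM, and 0 were called between the doses in AMO1.

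Same-numbered libraries of different groups had deviations correlating at -0.124 to 0.0908 over 18 pairs, and pairs with different numbers at -0.129 to 0.125. No pairing by number was seen, but the labels do not say what the numbers mean, and these correlations cannot settle it. With the replicate block 17 genes fell in XG1 at 1000 nM, 5 fell in AMO1 at 100 nM, 15 were higher in XG1 than AMO1 in DMSO, and 0 were called between the doses in AMO1.

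Leaving out 1 library at a time gave 0 to 1 rises and 8 to 18 falls in XG1 at 100 nM, 1 to 2 rises and 13 to 32 falls in XG1 at 1000 nM, 0 rises and 4 to 17 falls in AMO1 at 100 nM, and 1 rise and 17 to 38 falls in AMO1 at 1000 nM. Between the lines in DMSO it gave 19 to 25 genes higher and 10 to 14 lower. It gave 0 to 2 calls between the doses in AMO1, 0 in XG1, and for the difference of the lines' responses 0 at 100 nM and 0 to 1 at 1000 nM. The call between doses in AMO1 was lost without any 1 of 5 AMO1 libraries. The causes were not tested. Depth is unknown, so what it limits could not be set.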
